A study of Mus musculus with 12 samples.

Results

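Kappa light-chain V genes are the gene segments that encode most of the variable domain of the kappa antibody light chain. Members were taken as the V genes, with names starting IGKV, of productive kappa contigs in the filtered VDJ tables, and 82 genes of 18 families met this rule among 178 V genes of all chains. They were carried by 6702 contigs on 6671 of 8557 barcodes. The barcodes are antibody-secreting cells of Prdm1-eYFP reporter mice on the C57BL/6 background, aged 3 months and pooled from 3 mice per sort, and were taken from thymus, spleen and bone marrow. All libraries came from cells gated as B220 positive or negative, CD138 high, IgD negative, CD90.2 negative and Prdm1-eYFP positive. Each tissue had 1 library labelled female and 1 labelled male, made with a 5′ single-cell kit and a B cell VDJ enrichment, and there was no untreated or other comparison group.

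Each developing B cell joins 1 kappa V gene to 1 of the functional J genes IGKJ1, IGKJ2, IGKJ4 and IGKJ5, and the join forms the end of CDR3, the most variable loop of the light chain. The V genes lie in either orientation along a long locus, and a cell can replace a first join by joining a V gene farther out to a J gene farther down, which is called receptor editing. Plasma cells secrete the resulting light chain together with the heavy chain, whose constant gene sets the class (IgM, IgA, IgG), and the V genes can acquire somatic mutations during an immune response.

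The VDJ labels went against the gene expression labels. Each VDJ library labelled female shared far more barcodes with the gene expression library labelled male of the same tissue (1718 of 1778 in bone marrow, 2794 of 2893 in spleen, 706 of 917 in thymus) than with any other. The VDJ libraries labelled male did so with those labelled female (1046 of 1049, 1253 of 1253 and, in thymus, 333 of 667, which is 49.9%). In the matched cells Xist, the RNA of the inactive X chromosome, was at 1.26 to 1.61 CPM (UMI counts scaled to equal depth) for the VDJ libraries labelled female and at 549 to 1503 for those labelled male. Libraries are therefore named by their label, and no direction between the sexes is drawn. Tissue labels matched throughout. The 6 libraries held 238830 to 3864095 UMIs (single molecules) in contigs, and the median kappa contig had 33 UMIs in thymus labelled male and 88 to 477 in the other 5 libraries. All 6 plasma cell markers were detected in every library, B cell markers summed to 136 to 242 CPM, and neutrophil markers to 1607 and 592 in bone marrow and at most 0.131 in spleen and thymus. T cell markers summed to 23.4 and 56.4 CPM in thymus labelled female and male and to 5.34 to 11.2 in spleen and bone marrow. Barcodes with a heavy contig but no light contig made up 31.6% of bone marrow labelled female and 1.36% to 14.6% of the other libraries, and 42 barcodes occurred in more than 1 VDJ library.

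A clone was counted once per library for each distinct combination of V gene, J gene and CDR3 nucleotides of both chains, among barcodes with exactly 1 heavy and 1 light contig. This gave 3835 kappa clones from 6529 cells, with 570, 1231 and 529 clones in bone marrow, spleen and thymus labelled female and 479, 692 and 334 in the same tissues labelled male. Where sister cells differ by a mutation in CDR3 they count as several clones. With such clones merged into lineages (same V and J genes and CDR3 lengths, heavy CDR3 differing at up to 15% of bases) 3106 kappa lineages remained.

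The sequences on which the joins turn are the ends of the germline V and J genes, taken from the mouse GENCODE M21 transcripts (GRCm38). The J genes are shown in full, with the bases that fall in CDR3 in capitals. They lie on the plus strand at chr6:70722562-70722599 (IGKJ1), chr6:70722916-70722958 (IGKJ2), chr6:70723548-70723585 (IGKJ4) and chr6:70723886-70723927 (IGKJ5), where the annotated IGKJ2 and IGKJ5 spans are 4 bases longer than the transcript sequence shown.
IGKJ1: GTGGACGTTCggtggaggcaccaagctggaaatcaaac
IGKJ2: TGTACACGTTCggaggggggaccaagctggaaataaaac
IGKJ4: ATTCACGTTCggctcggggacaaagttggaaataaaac
IGKJ5: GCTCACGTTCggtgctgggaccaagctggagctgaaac

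All 82 V genes lie on chromosome 6 between bases 67555497 and 70704177, 32 on the plus and 50 on the minus strand, and the second number of the gene name follows their order outward from the J genes. The germline bases from the cysteine codon that opens CDR3 to the end of the V gene are shown for 7 members that stand out below in use, J choice or CDR3 length: IGKV5-39 (chr6:69900424-69900977, minus), IGKV4-55 (chr6:69607275-69607828, minus), IGKV12-89 (chr6:68834846-68835307, minus), IGKV2-137 (chr6:67555497-67556216, plus), IGKV19-93 (chr6:68736297-68736780, minus), IGKV8-27 (chr6:70171809-70172270, minus) and IGKV4-70 (chr6:69267888-69268443, minus). Coordinates are those of the whole gene.
IGKV5-39: tgtcaaaatggtcacagctttcctcc
IGKV4-55: tgccagcagtggagtagttacccaccca
IGKV12-89: tgtcaaaatgtgttaagtactcctcc
IGKV2-137: tgtatgcaacatctagaatatccttt
IGKV19-93: tgtctacagtatgataatcttctacc
IGKV8-27: tgtcatcaatacctctcctcg
IGKV4-70: tgccatcagcggagtagttaccca
The first 5 carry 26 or 28 bases, while IGKV8-27 has 21 and IGKV4-70 has 24.

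Kappa V gene use was broad, with a few leading genes. IGKV4-55 had the highest mean share, 5.25% ± 1.98 of kappa clones (SD, n = 6 libraries), followed by IGKV5-39 with 4.80% ± 4.19, IGKV1-110 with 4.69% ± 1.71 and IGKV3-4 with 4.17% ± 5.05. The next were IGKV12-46 (3.69% ± 1.88), IGKV1-117 (3.24% ± 1.76), IGKV10-96 (3.02% ± 1.35), IGKV6-23 (2.99% ± 2.20), IGKV9-120 (2.84% ± 1.16) and IGKV19-93 (2.76% ± 1.70). The spread between libraries was wider than the steps between neighbours in this order, so neighbouring ranks do not differ beyond it. IGKV4-55 lay above both IGKV9-120 and IGKV19-93 in each of the 6 libraries. This order is by clones, and sister clones count separately. The pairs of IGKV4-55 with IGHV1-80, IGHV1-53 and IGHV1-36 held 106, 55 and 42 of its 229 clones but 40, 16 and 6 lineages, so its lead may not hold by lineages. Within a library the 10 leading genes of that library held 43.4% to 50.9% of its clones, and over all libraries the 15 most used genes held 50% of clones. At the other end 35 members had under 20 clones each and 4 had 1 clone.

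**Figure D1:**
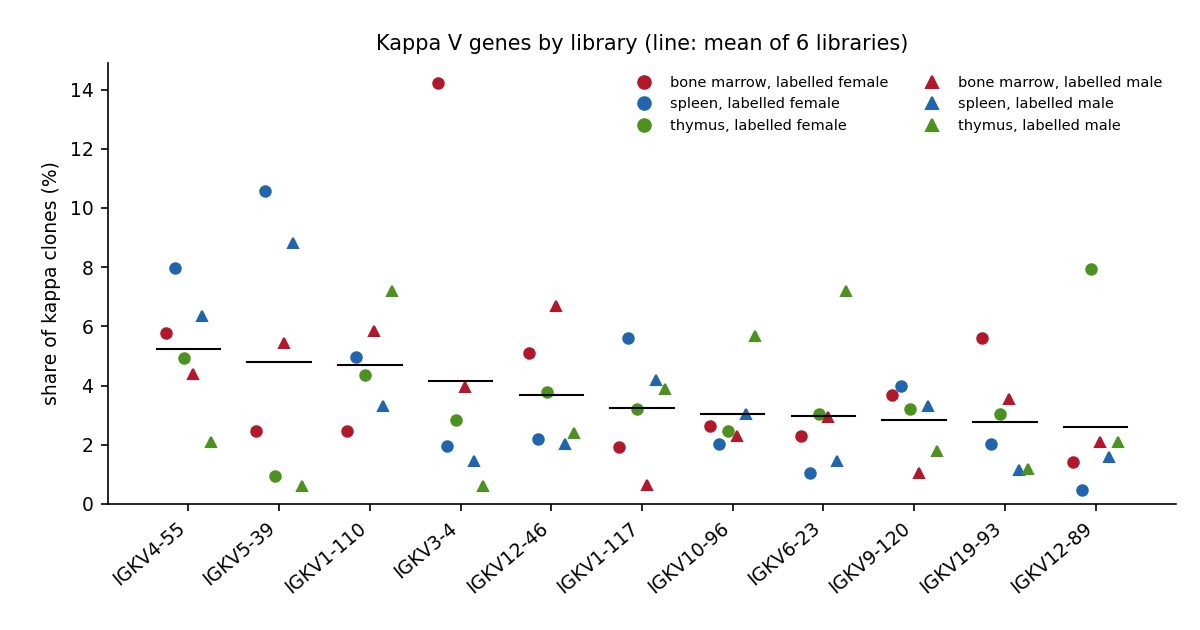
Share of kappa clones (%, vertical axis) held by the 10 leading kappa V genes and IGKV12-89 in each of the 6 libraries, coloured by tissue, with circles for libraries labelled female and triangles for those labelled male; the black line is the mean. IGKV3-4 is high in bone marrow labelled female (14.2%), IGKV5-39 in both spleen libraries (10.6% and 8.82%) and IGKV12-89 in thymus labelled female (7.94%).

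Of the 18 families, IGKV4 (20 members) held the most clones, 15.1% ± 2.11 (SD, n = 6), and its share was between 13.4% and 18.7% in every library. IGKV1 (7 members) followed with 12.7% ± 3.38 and IGKV6 (8 members) with 10.9% ± 3.71. IGKV3 varied more, 9.69% ± 4.56, with 17.9% in bone marrow labelled female and 4.49% in thymus labelled male. By position, 32 members numbered 1 to 47 (nearest the J genes) held 1611 clones, 27 members numbered 48 to 94 held 973 and 23 members numbered 95 and above held 1251. Use was not tied to 1 end of the locus: leading members lay 50.2 kb from IGKJ1 (IGKV3-4) and far beyond (IGKV1-110). Members in the inverted orientation to the J genes, on the minus strand, held 2235 clones and those on the plus strand 1600, and the plus share was 39.2% to 44.1% in every library.

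**Figure D2:**
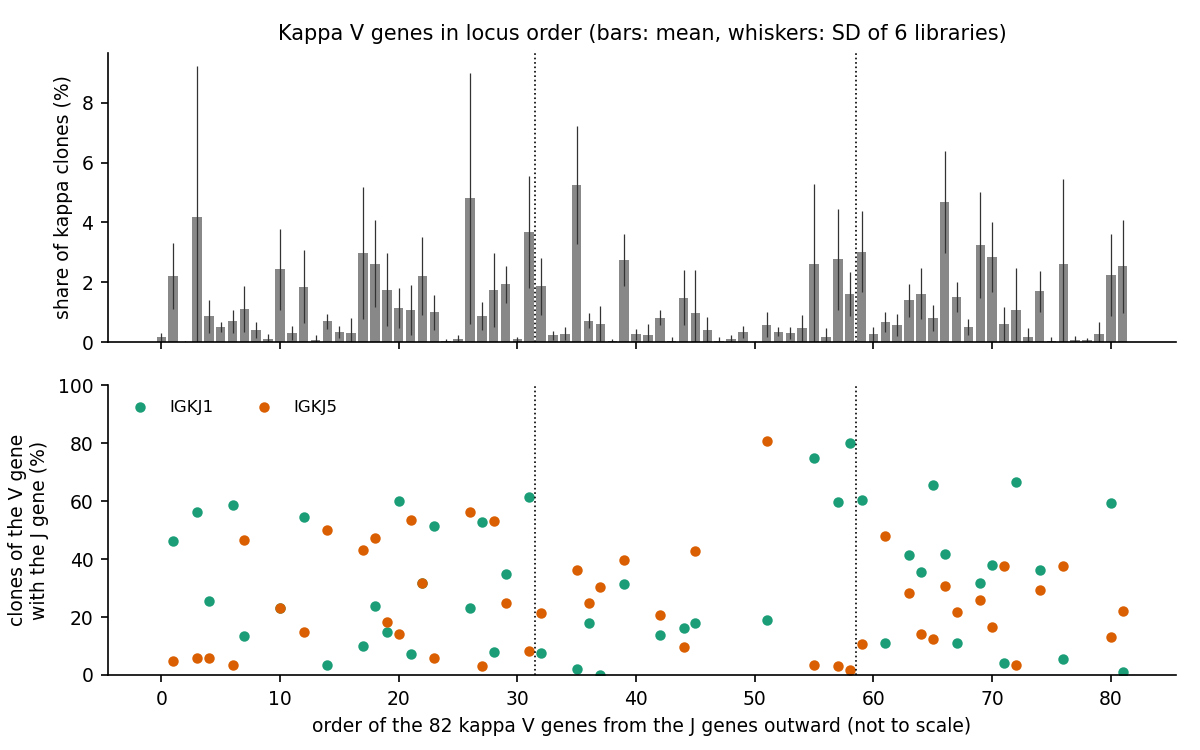
The 82 kappa V genes in their order outward from the J genes (horizontal axis, order only), with the mean share of kappa clones and its SD over 6 libraries (upper panel, %) and the share of each gene's clones joined to IGKJ1 or IGKJ5 (lower panel, %, genes with 20 or more clones); dotted lines part the 3 position groups. High and low users, and high and low IGKJ1 shares, occur in every position group.

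The number of different V genes was similar in all libraries once depth was equal. At 334 clones, the size of the smallest library, 58.9, 61.2 and 59.5 kappa V genes were expected in bone marrow, spleen and thymus labelled female and 60.5, 63.5 and 57.0 in those labelled male. Spleen had the highest number within each label, though an exact test of 2 libraries against 2 cannot go under p = 0.33. Kappa rather than lambda light chains made up 89.6%, 89.7% and 90.1% of clones in bone marrow, spleen and thymus labelled female and 89.0%, 83.7% and 81.5% in those labelled male. The 95% exact binomial intervals were 81.0% to 86.1% for spleen and 77.4% to 85.1% for thymus labelled male, which covers counting error only. Both lay below the shares of the 4 other libraries. A second kappa contig was rare, on 0.922%, 0.543% and 0.528% of kappa barcodes in bone marrow and thymus labelled female and bone marrow labelled male and on 2.65% in thymus labelled male, with 0 of 2632 and 0 of 969 in spleen (exact upper limits 0.140% and 0.380%, for counting error only). Whether such barcodes were filtered in the same way in every tissue is not given in the sources used here, so the spleen values are not read as a difference between tissues.

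Between tissues, 3 of 47 kappa V genes with at least 20 clones passed edgeR's quasi-likelihood test (Benjamini-Hochberg adjusted p at most 0.05 over 109 heavy, kappa and lambda V genes, with the sex label as a term). The first was IGKV5-39. It held 2.46%, 10.6% and 0.945% of kappa clones in bone marrow, spleen and thymus labelled female (14, 130 and 5 clones) and 5.43%, 8.82% and 0.599% in those labelled male (26, 61 and 2 clones). Both spleen libraries lay above both bone marrow libraries, and both thymus libraries below all 4 others. Of the 130 clones in spleen labelled female 47 were paired with IGHV9-3, and of the 61 in spleen labelled male 3 were. Thymus was below spleen, at −3.57 on the log2 scale (SE 0.61, adjusted p = 2.22e-06) and below bone marrow, at −2.27 (SE 0.67, adjusted p = 0.0311). With clones merged into lineages the first difference was −3.56 (adjusted p = 0.0154) and the second −2.21 (adjusted p = 0.248). Without any 1 of the 4 spleen or thymus libraries the first was −4.20 to −3.01 and lost its call. The second lost it without any 1 of the 6, with values from −3.04 to −1.47, the latter without bone marrow labelled male. Each tissue fit without 1 library leaves a tissue with 1 library, and calls were lost even at larger differences. A call lost in these fits, here and below, is therefore not read as dependence on that library. DESeq2 called the first and not the second (adjusted p = 0.0744), and so did edgeR without the 114 clones, described below, whose join begins with another V gene's end (−3.48, adjusted p = 0.0102, and −2.24, adjusted p = 0.207).

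The second gene was IGKV3-4, with 14.2%, 1.95% and 2.84% of clones in bone marrow, spleen and thymus labelled female (81, 24 and 15 clones) and 3.97%, 1.45% and 0.599% in those labelled male (19, 10 and 2 clones). Bone marrow was the highest tissue within each label, and the library labelled female stood far above the rest. The log2 fold change was −2.37 in thymus against bone marrow (SE 0.59, adjusted p = 0.00958) and −2.32 in spleen against bone marrow (SE 0.55, adjusted p = 0.00425). Merged into lineages they were −1.95 (adjusted p = 0.339) and −2.08 (adjusted p = 0.276), and leaving out any 1 library ended both calls. The spleen difference was −1.46 without spleen labelled female. Without the clones that carry another V gene's end they were −2.29 and −2.37, and both calls were lost (adjusted p = 0.111 each). The third was IGKV12-89, with 7.94% of clones in thymus labelled female (42 clones), 2.10% in thymus labelled male, and 0.487% to 2.09% in the 4 other libraries. It was higher in thymus than in spleen by 2.41 (SE 0.66, adjusted p = 0.0176), which came to 2.32 by lineages (adjusted p = 0.365). Leaving out any 1 library ended this call too, and without thymus labelled female the value was 0.58. It was 1.15 and 3.60 without spleen labelled female or male and 3.68 without thymus labelled male. The call was also lost by DESeq2 (2.38, adjusted p = 0.535) and without the clones that carry another V gene's end (2.43, adjusted p = 0.303).

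Counts over all V genes set the scale for these calls. Thymus against bone marrow had 2 kappa V genes called, where 2.75% of all 109 V genes were, thymus against spleen 2 (1.83% of all) and spleen against bone marrow 1 (0.917% of all). The median log2 fold change of the 47 kappa V genes was 0.09, −0.05 and 0.17 in these 3 comparisons, beside 0.04, −0.11 and 0.13 over all genes tested. Between the labels 4 kappa V genes passed (11% of all V genes did). IGKV1-122 and IGKV2-137 were higher (6.42% of all were) and IGKV3-4 and IGKV17-127 lower (4.59% of all) in the libraries labelled male, with log2 fold changes of 2.65, 1.56, −1.48 and −1.60. None of the 4 passed by lineages, where adjusted p was 0.258 to 0.392, or without the clones that carry another V gene's end (0.083 to 0.271), DESeq2 called IGKV2-137 and IGKV3-4 but not the others, and only IGKV17-127 passed without 1 library, bone marrow labelled female. Without thymus labelled female or male it was −0.70 or −0.73. IGKV1-122, with 0 clones in bone marrow and thymus labelled female, ranged from 1.56 without thymus labelled female to 6.78 and 7.02 without spleen labelled female or male. Bone marrow also had the neutrophil RNA and thymus the T cell RNA given above, whose part in these differences was not tested.

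By clones, J gene use was even between libraries. IGKJ1 was joined in 32.8% ± 2.29 of kappa clones (SD, n = 6), IGKJ2 in 27.2% ± 3.00, IGKJ5 in 25.4% ± 2.98 and IGKJ4 in 14.6% ± 1.60. IGKJ5 was at 21.8% and 21.9% in the 2 bone marrow libraries and between 25.3% and 28.3% in the 4 others, so bone marrow did not overlap with spleen or thymus, though 2 against 2 allows no p under 0.33. Such a gap was not particular to IGKJ5. Spleen was lowest for IGKJ1 (30.2% and 30.6%, the others 31.9% to 36.1%). Thymus was lowest for IGKJ4 (13.4% and 13.2%, the others 13.9% to 17.3%). Counted by cells, IGKJ5 reached 52.5% in spleen labelled female against 28.3% by clones. A single clone with IGHV9-3, IGKV5-39 and IGKJ5 held 880 cells there, 33.5% of its kappa cells.

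**Figure D3:**
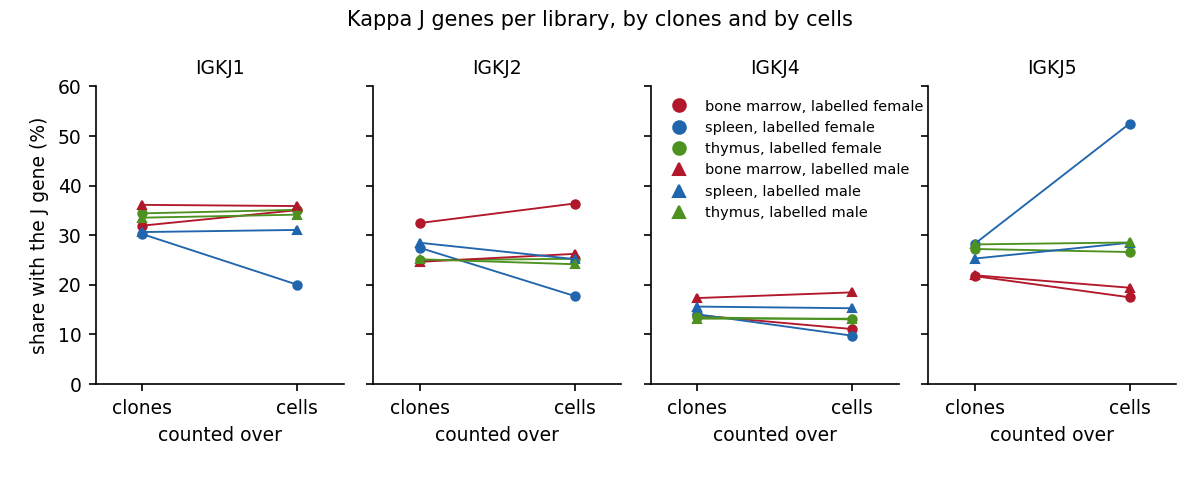
Share of each kappa J gene (%, vertical axis) in each library counted over clones (left point) and over cells (right point), coloured by tissue, with circles for libraries labelled female and triangles for those labelled male. The lines are close to level except in spleen labelled female, where IGKJ5 goes from 28.3% to 52.5%.

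J gene choice differed strongly between V genes. Against the other J genes, with library as a term, 23 of 47 kappa V genes passed edgeR's test for IGKJ1 (13 higher, 10 lower), where 32.3% of the 99 V genes tested did (18.2% higher, 14.1% lower). For IGKJ5 16 passed (8 higher, 8 lower, beside 18.2% of all, 9.09% higher and 9.09% lower), for IGKJ4 5 (all higher, 7.07% of all) and for IGKJ2 4 (3 higher, 1 lower, beside 7.07% of all, 5.05% higher and 2.02% lower). The 4 contrasts share their clones, so a gene low for one J gene is high for another.

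IGKV4-55 and IGKV2-137 were almost never joined to IGKJ1. For IGKV4-55 the counts with IGKJ1 were 1 of 33, 4 of 98 and 0 of 26 clones in bone marrow, spleen and thymus labelled female and 0 of 21, 0 of 44 and 0 of 7 in those labelled male. Its log2 fold change with IGKJ1 came to −4.25 (SE 0.54, adjusted p = 8.77e-13) and with IGKJ4 to 2.74 (SE 0.36, adjusted p = 6.05e-12), and 41.0% of its 229 clones used IGKJ4 against 14.6% over all kappa clones. The J gene differed with the heavy partner. Of its 106 clones with IGHV1-80 (40 lineages) 65.1% used IGKJ4. Of its 42 clones with IGHV1-36 (6 lineages) 92.9% used IGKJ5. The IGKJ4 share is therefore not read as a trait of IGKV4-55 joins with every heavy partner. For IGKV2-137, the outermost member, the counts with IGKJ1 were 0 of 6, 0 of 18, 0 of 6, 0 of 18, 1 of 33 and 0 of 10, which is −4.31 on the log2 scale (SE 0.77, adjusted p = 7.08e-07). IGKJ2 was joined in 61.5% of its 91 clones, higher by 2.56 (SE 0.46, adjusted p = 4.11e-06). Both genes were low for IGKJ1 in every library.

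The other low genes for IGKJ1 were IGKV4-57, IGKV8-19, IGKV17-127 and IGKV17-121 (log2 fold changes of −3.69, −2.86, −2.68 and −2.54), then IGKV5-48, IGKV8-28, IGKV6-23 and IGKV5-43. IGKV8-28 lost its call in 4 of the 6 fits without 1 library, and IGKV5-43 lost it by lineages (adjusted p = 0.0538) and without bone marrow labelled female, where it was −1.25 in place of −1.94. IGKV4-57, IGKV8-19 and IGKV17-121 passed in each such fit that held 20 or more of their clones (4, 5 and 4 of the 6). At the opposite end, IGKV10-94 used IGKJ1 in 80.0% of 60 clones (higher by 3.17, SE 0.55, adjusted p = 4.6e-07) and IGKV12-89 in 63 of 84 (higher by 2.39, SE 0.47, adjusted p = 8.66e-06). In IGKV12-89 the IGKJ1 counts were 7 of 8, 5 of 6 and 36 of 42 in bone marrow, spleen and thymus labelled female and 5 of 10, 7 of 11 and 3 of 7 in those labelled male, so all 3 libraries labelled female lay above those labelled male. This split was not tested, and libraries of a label share clones. It was not particular to IGKV12-89. In IGKV19-93 the IGKJ1 counts were 24 of 32, 17 of 25 and 11 of 16 against 6 of 17, 3 of 8 and 0 of 4. IGKV4-55, IGKV2-137, IGKV17-127, IGKV10-94 and IGKV12-89 passed for IGKJ1 with any 1 library left out and by lineages.

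For IGKJ5 the strongest calls were IGKV13-84 (higher by 3.64, SE 0.75, adjusted p = 7.78e-05, 21 clones) and IGKV1-99 (higher by 1.94) and, on the low side, IGKV19-93 (−2.96), IGKV10-94 (−2.72), IGKV12-41 (−2.58), IGKV3-2 (−2.52), IGKV12-89 (−2.33) and IGKV3-5 (−2.27). IGKV5-39 used IGKJ5 in 56.3% of 238 clones (higher by 1.59, SE 0.38, adjusted p = 0.000609). The counts with IGKJ5 were 5 of 14, 90 of 130 and 4 of 5 in bone marrow, spleen and thymus labelled female and 4 of 26, 30 of 61 and 1 of 2 in those labelled male. In bone marrow labelled male 18 of the 26 used IGKJ1, so the lean to IGKJ5 was not seen there. By lineages the difference was 1.66 (adjusted p = 1.49e-09), and without spleen labelled female it was 1.25 and lost its call (adjusted p = 0.0579). For IGKJ2 the higher genes besides IGKV2-137 were IGKV4-70 (2.30) and IGKV14-111 (1.77), and IGKV5-39 was lower (−1.36). For IGKJ4 they were IGKV4-57 (2.14), IGKV3-5 (2.10), IGKV3-2 (1.79) and IGKV5-48 (1.67) besides IGKV4-55. Among these named genes IGKV10-94 and IGKV12-41 lost their IGKJ5 call without any 1 library, and IGKV1-99, IGKV3-5 and IGKV12-89 for IGKJ5, IGKV14-111 and IGKV5-39 for IGKJ2 and all but IGKV4-55 for IGKJ4 lost theirs in at least 1 case. IGKV3-5 was at −3.87 for IGKJ5 without spleen labelled female. IGKV13-84 fell under the minimum of 20 clones by lineages and in 4 of the 6 fits without 1 library, so its call was not tested there, and it passed in the other 2, those without thymus labelled female and without spleen labelled male. By lineages IGKV3-5 (1.01, adjusted p = 0.492), IGKV3-2 (1.44, adjusted p = 0.0549) and IGKV5-48 (1.38, adjusted p = 0.066) lost their IGKJ4 call, and IGKV10-94, IGKV12-41 and IGKV3-5 their IGKJ5 call (adjusted p = 0.0671, 0.0552 and 0.147). The same 3 lost their IGKJ5 call without the clones that carry another V gene's end (adjusted p = 0.115, 0.071 and 0.056). DESeq2 called 14, 1, 3 and 6 kappa V genes for IGKJ1, IGKJ2, IGKJ4 and IGKJ5, where edgeR called 23, 4, 5 and 16. Among the named genes it did not call IGKV4-57, IGKV8-19, IGKV17-121 and IGKV8-28 for IGKJ1, IGKV4-70, IGKV14-111 and IGKV5-39 for IGKJ2, or IGKV4-57 and IGKV3-5 for IGKJ4. For IGKJ5 it did not call IGKV13-84 (adjusted p = 0.532), IGKV1-99, IGKV5-39 (adjusted p = 0.0616), IGKV10-94, IGKV12-41 and IGKV3-5. The IGKJ5 count was 6, 8, 8 and 5 without bone marrow labelled female, bone marrow labelled male, spleen labelled male and thymus labelled female, and 10 without thymus labelled male. The IGKJ4 count was 1, 2, 3 and 1 without bone marrow labelled female, bone marrow labelled male, spleen labelled female and thymus labelled female, and the IGKJ2 count was 2 without spleen labelled female.

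**Figure D4:**
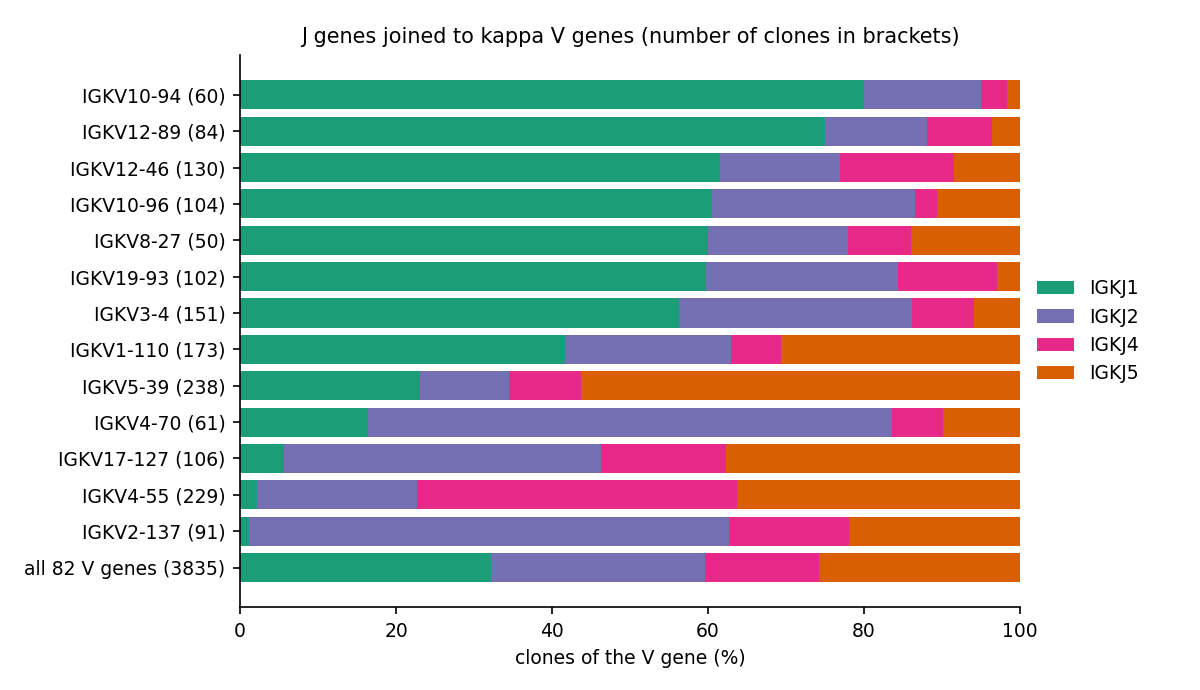
J genes joined to 13 named kappa V genes and to all 82 (stacked bars, % of the gene's clones, number of clones in brackets), ordered by IGKJ1. IGKJ1 takes 80.0% of IGKV10-94 clones and 1.10% of IGKV2-137 clones, beside 32.2% of all clones pooled.

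Family members did not all share a J gene pattern. In IGKV4, whose 609 clones used IGKJ1 in 13.3%, IGKV4-55 had 2.18% with IGKJ1 and 20.5% with IGKJ2, IGKV4-70 had 67.2% with IGKJ2, and IGKV4-59 had 31.5% with IGKJ1 and 39.6% with IGKJ5. Both IGKV10 members leaned to IGKJ1, with 80.0% and 60.6%. Along the locus 1 comparison was tested, outer members (95 and above) minus inner members (1 to 47), and it did not pass for any J gene. The differences were −0.65 percentage points for IGKJ1, 5.07 for IGKJ2, −2.31 for IGKJ4 and −2.10 for IGKJ5 as means of 6 libraries (exact two-sided sign-flip permutation tests, p = 0.812, 0.281, 0.188 and 0.719, adjusted p = 0.812, 0.562, 0.562 and 0.812). SDs of these differences were 3.58 to 9.81 points, so a difference of a few points was not detectable. Members numbered 48 to 94, which include IGKV4-55, had the highest mean IGKJ4 share, 22.0% beside 13.2% and 10.9%, and their share was above that of both other groups in each of the 6 libraries (17.6% to 28.2%). IGKV4-55 alone used IGKJ4 in 17 of 33, 37 of 98 and 11 of 26 clones in bone marrow, spleen and thymus labelled female. The whole group had 153, 315 and 157 clones there. In those labelled male the IGKV4-55 counts were 7 of 21, 18 of 44 and 4 of 7. The group's share without this gene is not given, so the higher share is not read as a trait of the whole group. The difference was not tested.

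Kappa CDR3 length was nearly fixed. It was 11 amino acids, counting the cysteine and phenylalanine at its ends, in 91.8% ± 1.34 of clones (SD, n = 6), 10 in 5.45% ± 0.836, 9 in 1.23% ± 0.850 and 12 in 1.20% ± 0.334. The mean per library was between 10.91 and 10.96 (SD 0.019 over libraries), and tissues overlapped in this mean. The share of clones with 11 amino acids did not overlap between tissues. It was 91.05%, 90.66% and 93.01% in bone marrow, spleen and thymus labelled female and 92.69%, 90.03% and 93.11% in those labelled male. Spleen was lowest and thymus highest within each label, though 2 libraries against 2 allow no p under 0.33. This order was not tested. In 71.4% ± 4.36 of clones the join held only bases of the germline V and J ends. In 224 clones (5.84%) the unbroken run of bases matching the germline V end, counted from the cysteine codon, was at most 5 bases long. Of these, at least 57 differed from the called V gene at 1 of the first 20 bases. In 114 (2.97% of kappa clones, 9 to 31 per library) the join instead began with 15 or more bases of the germline end of another member. Only ends of members with 20 or more clones were searched. At least 69 of the 114 differed from the called V gene at more than 3 of the first 20 bases. Clones whose called V gene had under 20 clones, such as IGKV6-13, were not compared for these differences. Among the 114, IGKV1-117 (23 of 142 clones), IGKV1-110 (14 of 173) and IGKV5-39 (11 of 238) had the most. The share was highest in IGKV6-13 (9 of 14 clones), which led in gene expression in 5 of 11 of its cells. The only IGKV1-122 clone with IGKJ5 carried the end of IGKV1-110, and the only IGKV2-137 clone with IGKJ1 that of IGKV2-109. In gene expression the called V gene led in 58 of 97 cells of such clones and the V gene whose end was carried in 6. Which V gene these clones use was not settled by these values, and results that change without them are given beside those results.

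A few V genes departed from 11 amino acids. Of 50 IGKV8-27 clones 4% had that length (mean 10.0), of 61 IGKV4-70 clones 21.3% (mean 9.49) and of 102 IGKV19-93 clones 46.1% (mean 10.5). Their commonest joins are shown with the bases of the J gene in capitals, beside the commonest join of IGKV5-39, which has the usual length.
IGKV8-27 to IGKJ1: tgtcatcaatacctctcctcgcGGACGTTC
IGKV8-27 to IGKJ2: tgtcatcaatacctctcctcgTACACGTTC
IGKV4-70 to IGKJ2: tgccatcagcggagtagttacACGTTC
IGKV19-93 to IGKJ1: tgtctacagtatgataatctGTGGACGTTC
IGKV5-39 to IGKJ5: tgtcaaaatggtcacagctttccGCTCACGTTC
IGKV8-27, whose germline end is short, kept all 21 V bases in both of its joins, which were seen in 13 of 30 IGKJ1 and 8 of 9 IGKJ2 clones, with 8 J bases and 1 further base or with 9 J bases. Bases that fit both the V and the J end were counted as V bases. Counted so, IGKV4-70 lost 3 V bases and kept 6 J bases, giving a join of 27 bases that was seen in 27 of its 41 IGKJ2 clones. The 3 bases before its capitals also fit IGKJ2, and so does the last V base of the IGKV8-27 to IGKJ2 join, so these bases can come from either end. IGKV19-93 lost 6 V bases and kept 10 J bases, and IGKV5-39 kept 23 V and 10 J bases, 33 in all.

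The same kappa join was often found with different heavy chains. The 3835 clones held 1331 distinct joins, and 444 of these (33.4%), with 75.9% of all kappa clones, occurred with 2 or more heavy chains. In all 6 libraries 25 joins were found, and 947 were found in 1. The joins met with the most heavy chains were made of germline bases alone, as the first 5 show (J bases in capitals).
IGKV5-39 to IGKJ5: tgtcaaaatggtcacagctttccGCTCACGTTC
IGKV12-89 to IGKJ1: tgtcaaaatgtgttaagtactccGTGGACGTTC
IGKV1-110 to IGKJ1: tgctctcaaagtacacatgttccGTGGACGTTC
IGKV9-120 to IGKJ2: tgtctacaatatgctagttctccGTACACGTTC
IGKV10-96 to IGKJ1: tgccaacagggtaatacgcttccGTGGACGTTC
They were found with 53, 40, 37, 37 and 36 different heavy chains, made of 24, 18, 19, 20 and 23 heavy V genes. Each joined 23 V bases to 10 J bases, and each was present in 5 or 6 libraries. The second IGKV5-39 to IGKJ5 join, with 26 V bases and 7 J bases, was carried by 987 cells but by 36 heavy chains that fell into 17 lineages:
IGKV5-39 to IGKJ5, longer V end: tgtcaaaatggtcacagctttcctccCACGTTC
The first join, by contrast, had 51 lineages in 85 cells.

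Kappa and heavy V genes were paired unevenly. Of 1460 V gene pairs 58 had 10 or more clones, with 30.1% of kappa clones, and 56 of the 58 had more clones than the product of the V gene shares within libraries gives, with a median ratio of 5.36. Since pairs were picked for their number of clones, these ratios are a description. The pair with the most clones was IGHV1-80 with IGKV4-55, with 106 clones (15, 47 and 16 in bone marrow, spleen and thymus labelled female and 10, 15 and 3 in those labelled male) in 40 lineages, 10.4 times the expected number. IGHV1-53 with IGKV4-55 had 55 clones in 6 libraries (16 lineages, 4.44 times) and IGHV1-36 with IGKV4-55 had 42, none of them in the libraries labelled male (6 lineages, 12.2 times). IGHV9-3 with IGKV5-39 had 53 clones, 47 of them in spleen labelled female.

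Among genes with 50 or more clones IGKV4-70 had the highest share with a single heavy V gene. Of its 61 clones 48 (78.7%) carried IGHV1-50, 30.4 times the expected number. The 48 clones had 33 different heavy CDR3 sequences, fell into 31 lineages and came from 5 libraries (10, 16 and 10 in those labelled female, 1, 11 and 0 in those labelled male). IGHV1-55 with IGKV12-89 (37 clones, 20 lineages, 11 times), IGHV8-8 with IGKV9-120 (39 clones, 25 lineages, 6.81 times) and IGHV7-1 with IGKV15-103 (12 clones, 11 lineages, 21.1 times) were each found in all 6 libraries. All clones of these 3 pairs with a named class were IgM, and the V genes of the IGKV12-89 and IGKV15-103 chains in them held 0 mismatches to the germline. IGHV6-6 with IGKV6-25 (28 clones in 12 lineages) and IGHV1-18 with IGKV10-94 (27 clones in 5 lineages) were in 4 libraries, at 15.4 and 19.2 times. Further pairs among those with the highest ratios were IGHV1-54 with IGKV8-28, IGHV1-47 with IGKV16-104, IGHV1-22 with IGKV3-5, IGHV1-58 with IGKV6-17 and IGHV3-6 with IGKV12-41 (31.5, 26.8, 21.9, 19.9 and 17.5 times). They had 10, 10, 12, 10 and 22 clones in 3, 6, 3, 3 and 14 lineages, so that most of these ratios rest on few lineages. The pairs with IGKV8-28 and IGKV3-5 were found only in libraries labelled female, those with IGKV16-104 and IGKV6-17 only in libraries labelled male.

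**Figure D5:**
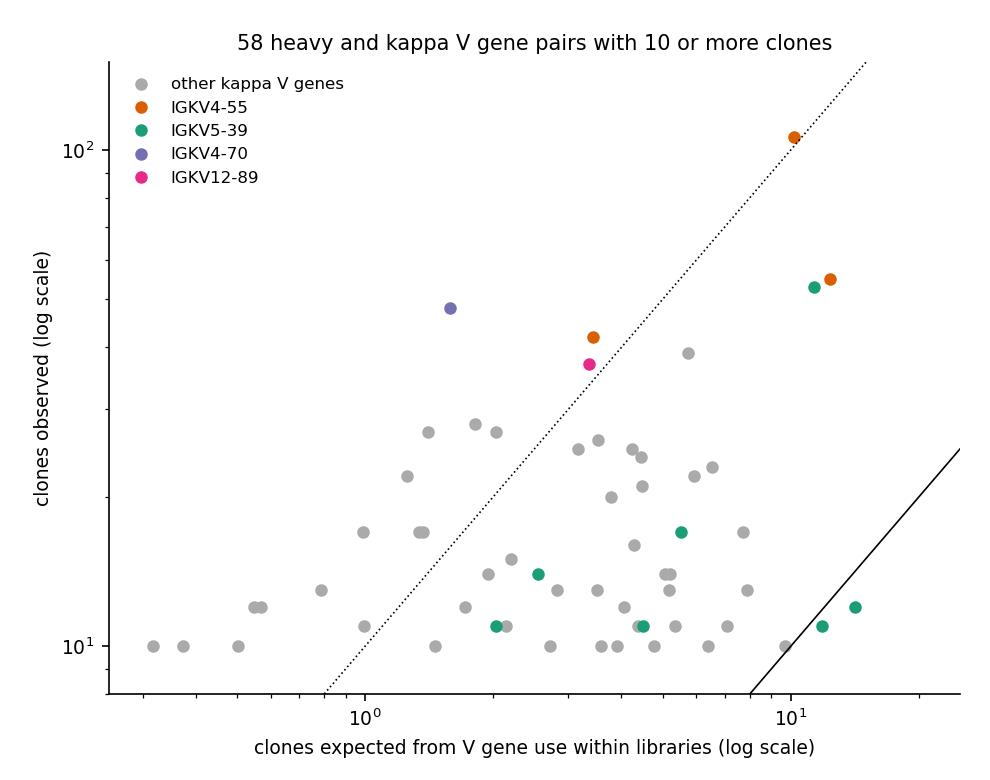
Clones observed (vertical axis, log scale) against clones expected from V gene use within libraries (horizontal axis, log scale) for the 58 heavy and kappa V gene pairs with 10 or more clones; the solid line marks equality and the dotted line 10 times the expected number. IGHV1-80 with IGKV4-55 lies at 106 clones and IGHV1-50 with IGKV4-70 at 48 clones against 1.58 expected.

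Across heavy chain families, the IGHV1 family paired with 48.8% to 62.4% of kappa clones per library. Against all other heavy families 6 of 47 kappa V genes passed edgeR's test with library as a term, where 18% of the 50 light-chain V genes tested did (8% higher, 10% lower). The 50 were these 47 and the 3 lambda V genes. Of the 50, 9 passed (5 lower), and of the kappa V genes 6 passed (2 lower). All 3 lambda V genes were thus called lower, which raises the 18%. IGKV4-55 was joined to IGHV1 in 93% of clones, a log2 difference of 3.51 (SE 0.35, adjusted p = 7.94e-09), and IGKV4-70 in 85.2%, higher by 2.34 (SE 0.58, adjusted p = 0.00546). IGKV12-89 (1.72) and IGKV3-4 (1.29) were also higher, and IGKV4-68 (−2.32) and IGKV6-25 (−1.57) lower. With any 1 library left out IGKV4-55 and IGKV4-70 passed, while each of the other 4 lost its call in at least 1 case. IGKV12-89 was at 2.81 without thymus labelled female. Without bone marrow or spleen labelled female 3 kappa V genes were called in place of 6. By lineages IGKV4-55 (2.06, adjusted p = 0.000141), IGKV4-70 (2.03, adjusted p = 0.0179) and IGKV4-68 (−1.94, adjusted p = 0.0477) passed and the other 3 did not (adjusted p = 0.14 to 0.446).

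The reverse view, several kappa chains with 1 heavy chain, was less common. Of 2879 distinct heavy chains 382 (13.3%) were found with 2 or more kappa joins, and for 167 of these all joins used 1 kappa V gene. The gene expression libraries give a second reading of the V gene. For heavy chains with 1 join the kappa V gene of the contig also led the kappa V genes in the cell's gene expression counts in 94.5% of 3108 cells, and for the commonest join of heavy chains with several in 97% of 2186. For rarer joins with the same V gene it was 99.2% of 495 cells. For rarer joins with another V gene it was 54.5% of 279 cells, and in 30.5% of these cells gene expression was led by the V gene of the heavy chain's commonest partner instead. By library the V gene of the contig led in 95.3%, 94.8% and 85.4% of cells in bone marrow, spleen and thymus labelled female and in 98.7%, 96.2% and 75.5% in those labelled male, so thymus had the lowest agreement and also the lowest kappa UMI medians (88 and 33).

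Heavy chain class and clone size went with no kappa V gene past the threshold in edgeR's test. For IgA against IgM clones 0 of 47 passed (0.943% of all 106 V genes did), 7 had an unadjusted p under 0.05 and DESeq2 called 1. For IgG against IgM 0 passed (0.943% of all did), 11 had an unadjusted p under 0.05 and DESeq2 called 0. For clones of 2 or more cells against 1 cell 0 passed (0% of all 109), 5 had an unadjusted p under 0.05 and DESeq2 called 1. The lowest adjusted p for IgA was that of IGKV4-55, with 1.35% of its classed clones IgA (log2 fold change −2.72, SE 0.85, adjusted p = 0.0781), and it is the gene that DESeq2 called. Without the clones that carry another V gene's end edgeR called it too (−4.13, adjusted p = 0.00414). Next came IGKV4-70, listed with 0% IgA clones. Pooled over libraries 37.8% of classed IGKV2-137 clones were IgG, but the IgG share of classed clones of all kappa V genes ran from 4.66% in bone marrow labelled female to 40.3% in spleen labelled male. Of the 91 IGKV2-137 clones 33 were in the latter.

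Kappa CDR3 length did not differ detectably by class. IgA minus IgM was 0.0017 amino acids on average (SD 0.069, longer in 3 of 6 libraries, exact two-sided sign-flip permutation test, p = 0.969) and IgG minus IgM 0.050 (SD 0.053, longer in 5 of 6, p = 0.0938, adjusted p = 0.188). With 6 libraries the smallest p this test allows is 0.0312.

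Mismatches to the germline V gene, counted over the V region before CDR3, were few. Each clone was given the commonest count among its cells, and the lowest where counts tied. The V gene was unmutated in 57.2% ± 4.33 of clones (SD, n = 6) and the mean was 0.663% ± 0.192 of bases. IGKV4-55 stood lowest among genes with 50 or more clones, with 15.4% of clones unmutated and a mean of 1.25%, and IGKV1-135 highest, with 87.7% unmutated. Sister clones that differ by a mutation in CDR3 each count here, and IGKV4-55 had many clones per lineage (106 clones in 40 lineages with IGHV1-80). IgG clones had a higher mean than IgM clones in 6 of 6 libraries, by 0.166 percentage points (0.760% against 0.594%, SD 0.112, exact two-sided sign-flip permutation test, p = 0.0312, adjusted p = 0.25 over 12 comparisons of class), which does not pass. IgA clones were higher in 5 of 6 libraries, by 0.288 points (same exact test, p = 0.0938, adjusted p = 0.281).

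Clones shared between libraries followed the label. The clones came from 3575 distinct heavy and kappa pairs, and 220 (6.15%) were found in more than 1 library. Between tissues labelled female, bone marrow shared 89 clones with spleen (15.6% and 7.23% of their clones) and 52 with thymus (9.12% and 9.83%), and spleen shared 50 with thymus (4.06% and 9.45%). Between those labelled male the counts were 52 (10.9% and 7.51%), 26 (5.43% and 7.78%) and 18 (2.60% and 5.39%). Across labels 0 to 4 clones were shared per pair of libraries, 10 distinct clones in all. IGKV4-55 held 21 of the 220 shared clones (9.55%, beside 5.71% of all distinct clones), IGKV6-25 held 10, out of 50 distinct clones, IGKV19-93 held 10 of 88 (11.4%) and IGKV5-39 held 10 of 227 (4.41%).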

How the data were processed

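The deposited VDJ tables give, per the file headers, one assembled contig per row with its barcode, V, J and constant genes, CDR3 and the count of reads and UMIs; the authors used Cell Ranger 6.0.2 with mm10/GRCm38, per the submitters' processing notes. The deposited gene expression matrices hold raw UMI counts per gene and barcode. Whether libraries of a label came from the same mice is not stated in the labels, and replicates differ in label, so p-values measure the spread between these libraries. Libraries of a label shared 18 to 89 clones and those of different labels 0 to 4, so the 6 libraries cannot be taken as independent units. SDs, fits and sign-flip tests over 6 libraries treat them as such, and a shared clone enters more than 1 library. Doublets were limited by requiring exactly 1 heavy and 1 light contig.

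Clones per V gene were compared with edgeR 4.0.16 (glmQLFit and glmQLFTest, R 4.3.3), with the number of clones as library size and no TMM, for V genes with at least 20 clones and columns with at least 20, and Benjamini-Hochberg adjustment over all V genes. Tissue fits had the sex label as a term and other fits the library. DESeq2 1.42.0 was an alternative. Single values were tested by exact sign-flip permutation over 6 libraries. On simulated counts for thymus against bone marrow (109 V genes, 20 changed), 0 of 20 were recovered at 4-fold and 15 of 20 at 8-fold. For IGKJ1 against the other J genes (99 V genes) 12 and 17 of 20 were. V gene counts rest on the table's gene names, so near-identical copies may be exchanged.

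Named genes were the 10 most used, up to 8 called per comparison by size, up to 6 by J share or CDR3 length among those with 50 or more clones (the 4 largest J departures and the 3 largest length departures, with 1 gene in both), up to 8 pairs by clones or by ratio, and the joins with most heavy chains. IGKV4-59, IGKV5-48, IGKV8-28, IGKV6-23 and IGKV5-43 (J genes), IGKV5-39 for IGKJ5, the genes named by mutation, class or sharing, and single libraries were singled out after their values were seen. Members and lists were chosen with earlier results of these data known. Cells of 2 kappa V genes enter no clone count, and these genes are not reported here.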

Additional observations from a re-analysis of the deposited data

How the results depend on the processing

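For thymus against bone marrow (2 kappa V genes) DESeq2, cells in place of clones, cells with several light contigs kept, and leaving out clones found in several libraries each gave 1. Deposited clonotypes, clones by heavy CDR3 amino acids, lineages, cells whose V gene also led in gene expression, clones with another V gene's end left out, and a fit with no sex term gave 0. For thymus against spleen (2) deposited clonotypes, heavy CDR3 amino acids, several light contigs, lineages, other ends left out and no sex term gave 1, and DESeq2 gave 2, of which 1 was among the 2. For spleen against bone marrow (1) a minimum of 50 clones gave 3, cells 2, and deposited clonotypes, heavy CDR3 amino acids, lineages, other ends left out and no sex term 0. For the labels (4) DESeq2 gave 2, barcodes also in gene expression and the V gene also leading there 1, and no minimum, deposited clonotypes, heavy CDR3 amino acids, several light contigs, clones of several libraries left out, other ends left out and lineages 0. Leaving out each library gave 0 to 0, 0 to 1, 0 to 0 and 0 to 1 in these 4 comparisons.

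For IgA (0) TMM and a minimum of 50 clones gave 2, and DESeq2, cells, the V gene leading in gene expression and other ends left out 1. For IgG (0) lineages gave 2, and for clone size (0) DESeq2 gave 1. DESeq2 gave 14, 1, 3 and 6 for IGKJ1 (23), IGKJ2 (4), IGKJ4 (5) and IGKJ5 (16). IGKJ4 also fell to 1 with TMM, to 2 with deposited clonotypes and lineages, and to 3 with a minimum of 50 clones, heavy CDR3 amino acids and clones of several libraries left out. IGKJ5 fell to 8 without clones of several libraries and to 7 with the V gene leading in gene expression, and IGHV1 (6) to 3 without clones of several libraries and with lineages. IGHV1 rose to 9 with several light contigs kept and with the V gene leading in gene expression, and by cells gave 5, of which 3 were among the 6. Where a count stayed within 1.5 times, the genes could still differ: IGKJ1 gave 23 by cells and by lineages, of which 21 and 20 were among its 23, IGKJ5 gave 12 by lineages, of which 10 were among its 16, and IGKJ4 gave 6 by cells, of which 4 were among its 5. Leaving out each library gave 16 to 24, 2 to 4, 1 to 5, 5 to 11 and 3 to 8 for IGKJ1, IGKJ2, IGKJ4, IGKJ5 and IGHV1, and 0 to 1, 0 to 0 and 0 to 0 for IgA, IgG and size.

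By cells the mean IGKJ5 share was 28.8% and V genes at equal depth 57.9. The IgA minus IgM length difference turned to −0.0029 amino acids by cells and −0.00302 by lineages, and outer minus inner IGKJ1 to 1.92 points by lineages. Of the log2 fold changes of named genes under all alternatives, 691 kept direction and call, 259 lost the call, 9 gained one and 0 reversed. The cause of these changes was not tested. Merging into lineages, requiring the V gene to lead in gene expression, and leaving out clones of several libraries or clones with another V gene's end were chosen after seeing the data. The labels give no replicate numbers, but the tissue fits pair libraries by their sex label, and the fit with no sex term is the one without this pairing.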

Other observations

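Kappa chains of clones with 2 or more cells had a lower mean of mismatches to the germline V gene than those of clones with 1 cell in 6 of 6 libraries. Mean levels were 0.176% to 0.481% of bases in the former and 0.525% to 1.12% in the latter. Spleen was closest, with 0.481% against 0.627% in the library labelled female and 0.382% against 0.534% in that labelled male, and thymus labelled male was widest, with 0.200% against 1.12%. The share of unmutated clones was higher in clones of 2 or more cells in 5 of 6 libraries and lower in spleen labelled female, with 56.7% against 61.8%. Where counts tied between the cells of a clone the lowest was taken. This can lower the value of clones of 2 or more cells but not that of clones of 1 cell, so the direction is partly set by the counting. A mutated CDR3 also makes a clone of its own under the definition used, and this difference was not tested.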
